A study of Homo sapiens with 16 samples.

Results

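The genes described here are 33 targets of the androgen receptor, genes whose transcripts are known to follow androgen in prostate cells. They were taken by name as known targets of the receptor, by a rule that uses no level or change in these samples, though the list was drawn up with earlier results of these data known. They are 33 of the 62754 gene entries in the count table, and all 33 were among the 18549 genes with enough counts to be tested. RNA came from LNCaP, an established line from a lymph node metastasis of human prostate cancer that expresses the androgen receptor. WT cells and cells in which p53 had been knocked out with CRISPR (p53 KO) were given vehicle (DMSO) or 5 µM GCN2iB, an inhibitor of the kinase GCN2, for 48 h, which makes 4 groups of 4 libraries, named by genotype and treatment. All 4 groups grew in phenol-free RPMI-1640 with 10% FBS, no androgen is named as an addition, and the labels leave it unsaid whether the p53 KO line was 1 clone or a pool. Nothing in the labels says that the 4 libraries of a group came from separate cultures, so p-values here cover only the spread among these libraries, which may be technical.

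The androgen receptor is a nuclear receptor that waits in the cytoplasm with chaperones until testosterone or dihydrotestosterone binds it. It then enters the nucleus and binds DNA elements made of a pair of inverted short repeats, mostly in enhancers that the pioneer factor FOXA1 has opened. Its targets in the luminal cells of the prostate include secreted kallikreins, metabolic enzymes and transporters, and prostate cancers usually go on depending on it. GCN2 senses amino acid shortage and slows translation through eIF2, and p53 is the tumour suppressor that switches on CDKN1A. The transcript of the receptor itself was not analysed here.

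Total counts per library ranged from 17418072 to 39915685, and values are given as CPM, a count divided by the scaled library total, with mean ± SD over 4 libraries. CDKN1A, which encodes the cell cycle inhibitor p21, had 275 ± 21.1 CPM with vehicle in WT and 37.5 ± 3.73 CPM with vehicle in p53 KO, the direction the genotype labels give. For CDKN1A, WT GCN2iB replicate 4 stood nearer to the p53 KO cells than its group did, at 375 CPM against 483 to 501 CPM in the other 3 libraries. Likewise p53 KO GCN2iB replicate 4 stood nearer to WT, at 51.65 CPM against 38.54 to 41.52 CPM in the rest of its group. Of 8 luminal prostate markers all 8 were tested, with a summed level of 3670 to 3830 CPM in WT vehicle, 3330 to 3600 CPM in WT GCN2iB, 3230 to 3370 CPM in p53 KO vehicle and 3220 to 3290 CPM in p53 KO GCN2iB. With GCN2iB 4 of these 8 were called lower in WT and 0 in p53 KO, against 13.6% and 8.71% of all tested genes. Between genotypes 4 were called lower in p53 KO under each treatment, against 12.1% of all tested genes under vehicle and 11.2% with GCN2iB. The part of these markers in the results was not tested. The 5 basal markers summed to 4.22 to 5.79 CPM, the 7 neuroendocrine markers to 4.87 to 8.74 CPM and the 5 immune markers to at most 0.524 CPM, with MS4A1 at 0 in every library. The 5 stromal markers summed to 21.3 to 27.5 CPM in WT vehicle and 14.8 to 16.8 CPM in p53 KO GCN2iB, and the 4 endothelial markers to 17.6 to 23.0 CPM in WT and 8.84 to 12.9 CPM in p53 KO, with KDR or CDH5 at 0 in each group, and their part in the results was not tested. The 33 targets took 0.789% to 0.821% of all counts in WT vehicle, 0.632% to 0.649% in WT GCN2iB, 0.851% to 0.878% in p53 KO vehicle and 0.678% to 0.708% in p53 KO GCN2iB. In RNA from whole wells, fewer cells that express a gene and less RNA per cell cannot be told apart.

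The upstream sequences of KLK3 and KLK2 are shown because these neighbours on chromosome 19 share most of their letters just before the start of transcription, while their transcripts parted between the genotypes. KLK3 (ENSG00000142515, GRCh38 chr19:50854915-50860764, plus strand) encodes prostate-specific antigen, and KLK2 (ENSG00000167751, chr19:50861568-50880567, plus strand) encodes a related protease that can activate it. Each line gives the 250 bases before the RefSeq start in GRCh38.p14, 5′ to 3′ on the plus strand, at chr19:50854665-50854914 for KLK3 and chr19:50873189-50873438 for KLK2, with bases that are identical in a global alignment of both in capitals.
KLK3: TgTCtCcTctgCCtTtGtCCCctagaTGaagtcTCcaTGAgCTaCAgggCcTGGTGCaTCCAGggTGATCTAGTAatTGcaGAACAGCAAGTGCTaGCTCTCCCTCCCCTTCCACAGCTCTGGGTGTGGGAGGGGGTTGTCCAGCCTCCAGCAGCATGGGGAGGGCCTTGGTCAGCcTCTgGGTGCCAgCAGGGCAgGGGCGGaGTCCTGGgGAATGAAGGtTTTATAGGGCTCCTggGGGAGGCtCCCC
KLK2: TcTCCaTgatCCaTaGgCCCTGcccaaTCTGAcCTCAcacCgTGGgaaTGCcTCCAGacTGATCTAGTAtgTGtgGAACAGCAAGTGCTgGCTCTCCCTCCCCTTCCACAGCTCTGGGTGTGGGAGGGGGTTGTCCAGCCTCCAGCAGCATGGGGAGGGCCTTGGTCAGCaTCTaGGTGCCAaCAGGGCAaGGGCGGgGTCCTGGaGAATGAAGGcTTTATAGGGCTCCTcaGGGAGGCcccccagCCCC
The stretches were identical at 205 of 241 aligned positions (85.1%), with 18 bases in gaps. The longest identical run was 80 bases, from position -154 to -75 in KLK3 and from -160 to -81 in KLK2, counted from the start as 0. The letters are a description of the reference genome, and binding of the receptor to them was not measured in these samples.

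Most of the 33 targets fell with GCN2iB in both genotypes, and none was called higher. A gene was called when its edgeR quasi-likelihood p, adjusted by Benjamini-Hochberg over all genes tested, was under 0.05. In counts of genes, fell and rose stand for called lower and called higher. The log2 ratio lay above 0 for 1 gene in WT and 3 in p53 KO, none of them called. In WT cells 22 of 33 were called lower and 0 higher, where 13.6% of all tested genes were called lower and 11.6% higher, and the median log2 ratio was -0.31 against -0.03 over all genes. In p53 KO cells 20 of 33 were called lower and 0 higher, where 8.71% of all tested genes were called lower and 11.4% higher (20.1% either way), with a median of -0.24 against -0.01. The falls were modest: among called genes the largest was 1.64-fold, for ADAM7 in both genotypes. A set of 18 genes fell in both, which is 81.8% of the 22 called in WT and 90.0% of the 20 called in p53 KO, and 5.78% of all tested genes did so.

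Between the genotypes the same targets went both ways. Under vehicle 12 of 33 were higher in p53 KO and 7 lower, where 9.63% of all tested genes were called higher and 12.1% lower. With GCN2iB 16 were higher and 4 lower, where 12.7% of all tested genes were called higher and 11.2% lower. The medians were 0.11 and 0.14, against 0.01 and 0.03 over all genes. KLK2, KLK4, ACSL3, CHRNA2, ELL2, EAF2, MAF, ZBTB10, TSC22D3, STEAP4 and C1orf116 were higher in p53 KO under both treatments, and TMPRSS2, CAMKK2 and ABCC4 were lower under both. These are 11 and 3 of the 33 genes, and of all tested genes 6.04% were higher and 7.63% lower under both treatments. No gene was called in opposite directions under the 2 treatments. With library totals as the only scaling, 24 and 22 genes were called lower with GCN2iB in WT and p53 KO and 0 higher, and 16 were higher and 6 lower in p53 KO under vehicle. That scaling changed the split over all genes, from 2119 higher and 1615 lower with GCN2iB in p53 KO to 1401 and 2672, and from 1787 higher and 2238 lower between genotypes under vehicle to 2467 and 1593. Without WT GCN2iB replicate 4 the counts were 22 lower in WT with GCN2iB, and 15 higher and 4 lower in p53 KO with GCN2iB. Without replicate 4 of both GCN2iB groups, 22 were lower with GCN2iB in WT and 18 in p53 KO. Between genotypes 14 were then higher and 4 lower in p53 KO with GCN2iB, and 15 higher and 7 lower under vehicle. The share of counts from mitochondrial genes also differed, 3.06% to 4.17% in WT vehicle, 3.12% to 3.93% in WT GCN2iB, 4.15% to 4.95% in p53 KO vehicle and 3.59% to 4.30% in p53 KO GCN2iB, and its part in these results was not tested.

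**Figure D1:**
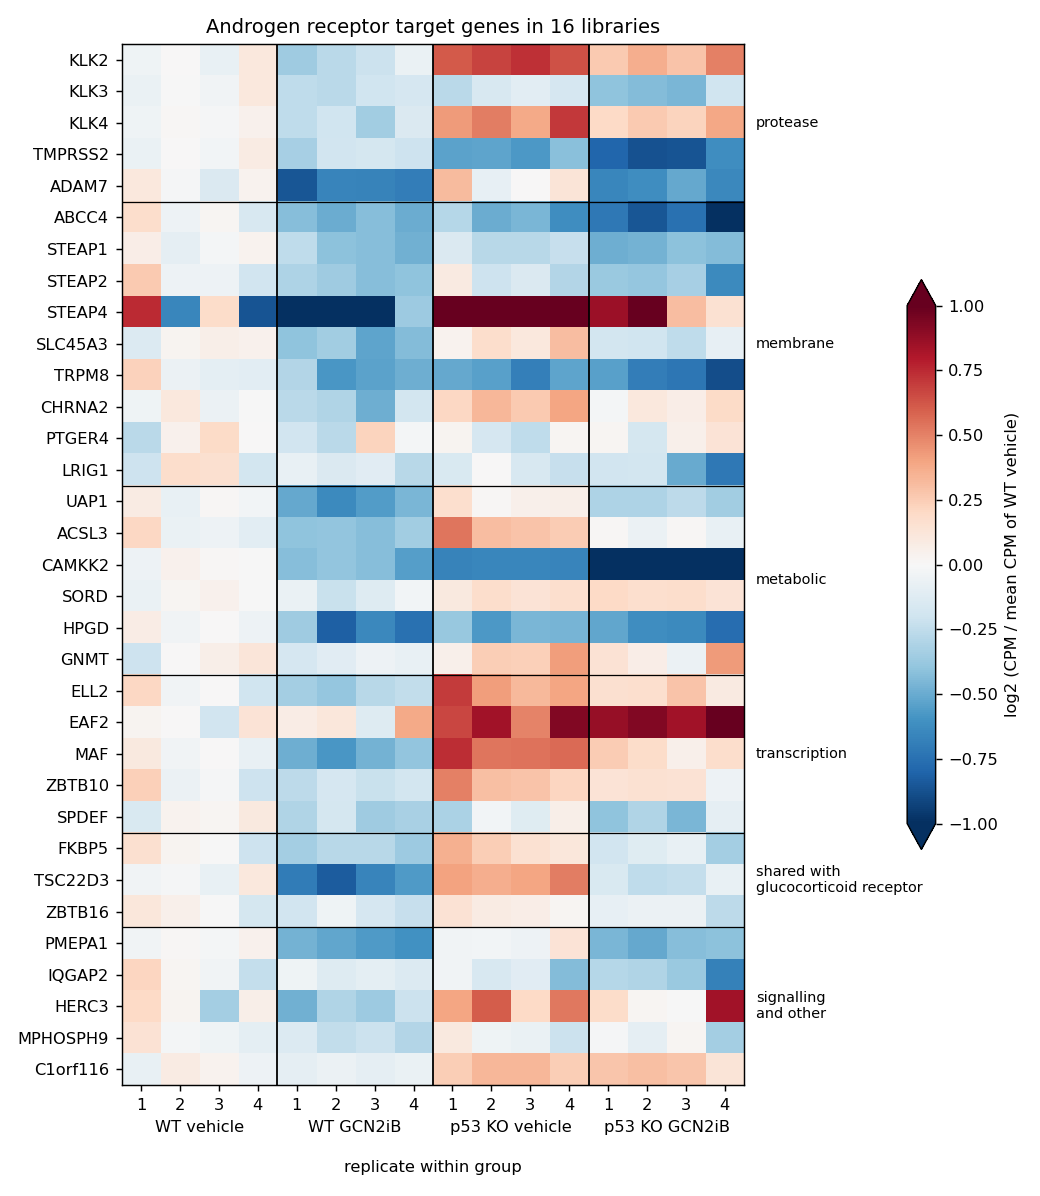
Levels of the 33 androgen receptor target genes in each of the 16 libraries, as log2 of CPM over the mean CPM of WT vehicle, with genes grouped by role and colours capped at 1 either way. The WT GCN2iB columns are blue for most genes, while the p53 KO vehicle columns are red for genes such as KLK2 and MAF and blue for CAMKK2 and TMPRSS2.

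The secreted and membrane proteases, grouped here with the ADAM family member ADAM7, ranged from the highest transcript of the set to one of the lowest. Per kilobase of exon, KLK3 stood at 379 CPM in WT vehicle, the highest of the 33 genes, followed by the non-proteases STEAP1 at 216 and SORD at 127. KLK4 stood at 126, TMPRSS2 at 63.9, KLK2 at 55.8 and ADAM7 at 2.65 on that scale. All 5 genes of this group fell with GCN2iB in both genotypes, where 13.6% of all tested genes fell in WT and 8.71% in p53 KO. Between genotypes KLK2 and KLK4 were higher in p53 KO and TMPRSS2 was lower under both treatments. KLK3 was lower in p53 KO under vehicle only, by a call near the threshold, and ADAM7 did not pass the test. That makes 2 of 5 higher and 2 lower under vehicle, against 9.63% and 12.1% of all tested genes. With GCN2iB 2 were higher and 1 lower, against 12.7% and 11.2%.

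KLK3 stood at 1680.0, 1747, 1711 and 1886 CPM in the WT vehicle libraries and at 1469, 1456, 1532 and 1561 CPM with GCN2iB. In p53 KO it stood at 1458, 1572, 1633 and 1559 CPM with vehicle and at 1332, 1301, 1279 and 1530.0 CPM with GCN2iB. Every WT GCN2iB library was below every WT vehicle library, and in p53 KO the GCN2iB replicate 4 lay within the vehicle range. KLK3 fell 1.17-fold in WT (log2 -0.22, SE 0.06, adjusted p = 0.01) and 1.14-fold in p53 KO (log2 -0.19, SE 0.06, adjusted p = 0.0284). It was 1.13-fold lower in p53 KO under vehicle (log2 -0.17, adjusted p = 0.0442), and with GCN2iB the log2 ratio was -0.15 (adjusted p = 0.0916). These are calls near the threshold. The fall in WT was not called without WT vehicle replicate 4 (adjusted p = 0.0558). That in p53 KO was not called without any 1 of p53 KO vehicle replicates 2 and 3 and p53 KO GCN2iB replicates 1, 2 and 3 (adjusted p = 0.0600 to 0.0945). The genotype call under vehicle was lost without any 1 of WT vehicle replicates 2, 3 and 4 and p53 KO vehicle replicates 1, 2 and 4 (adjusted p = 0.0569 to 0.129) and with library totals (adjusted p = 0.138), while under GCN2iB KLK3 was called lower without p53 KO GCN2iB replicate 4 (log2 -0.21, adjusted p = 0.00786).

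KLK2 parted from its neighbour between the genotypes. It stood at 346, 357, 339.5 and 383 CPM in WT vehicle and 278, 295, 306 and 341 CPM in WT GCN2iB. In p53 KO the vehicle libraries stood at 545, 568, 591 and 555 CPM and the GCN2iB libraries at 428, 459, 435 and 505 CPM. All 8 p53 KO libraries were above all 8 WT libraries. KLK2 was 1.58-fold higher in p53 KO under vehicle (log2 0.66, SE 0.07, adjusted p = 9.31e-08) and 1.5-fold higher with GCN2iB (adjusted p = 8.02e-07). It fell 1.17-fold with GCN2iB in WT (log2 -0.22, adjusted p = 0.0155), where replicate 4 overlapped the vehicle range, and 1.24-fold in p53 KO (log2 -0.31, adjusted p = 0.002). The WT fall was not called without WT vehicle replicate 4, WT GCN2iB replicate 1 or WT GCN2iB replicate 2 (adjusted p = 0.0745, 0.0776 and 0.0631). KLK2 and KLK3 are paralogs, and how the counting treated reads that match both is not given, so both levels are uncertain to that extent.

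KLK4 (ENSG00000167749, chr19:50906352-50910738, minus strand), a protease of enamel and prostate, followed KLK2. It stood at 236, 246, 243 and 251 CPM in WT vehicle, 204, 212, 192 and 220.4 CPM in WT GCN2iB, 328, 349, 317 and 398 CPM in p53 KO vehicle and 280.1, 292, 285 and 319.7 CPM in p53 KO GCN2iB. All 8 p53 KO libraries were again above all 8 WT libraries, while in p53 KO 1 GCN2iB library reached into the vehicle range. The genotype difference was 1.43-fold under vehicle (log2 0.51, SE 0.07, adjusted p = 4.7e-06) and 1.42-fold with GCN2iB (adjusted p = 6.88e-06). The fall with GCN2iB was 1.18-fold in each genotype (adjusted p = 0.013 in WT and 0.0129 in p53 KO). Leaving out WT GCN2iB replicate 3 ended the call in WT (adjusted p = 0.0806), and leaving out p53 KO vehicle replicate 4 ended that in p53 KO (adjusted p = 0.0570).

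TMPRSS2 (ENSG00000184012, chr21:41464551-41531116, minus strand), a membrane serine protease whose promoter drives ETS genes in many prostate tumours, went the other way between the genotypes. It stood at 374, 391, 384 and 415 CPM in WT vehicle and 309.9, 342, 347 and 339 CPM in WT GCN2iB. In p53 KO the values were 269, 272, 263 and 292 CPM with vehicle and 226, 214, 214 and 254 CPM with GCN2iB. The groups compared did not overlap in any comparison, and the p53 KO GCN2iB libraries were the lowest. TMPRSS2 was 1.43-fold lower in p53 KO under vehicle (log2 -0.51, SE 0.06, adjusted p = 1.55e-06) and 1.47-fold lower with GCN2iB (adjusted p = 5.65e-07). With GCN2iB it fell 1.17-fold in WT (log2 -0.22, adjusted p = 0.01; 0.0521 without WT vehicle replicate 4 and 0.0539 without WT GCN2iB replicate 1) and 1.21-fold in p53 KO (log2 -0.27, adjusted p = 0.00343).

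**Figure D2:**
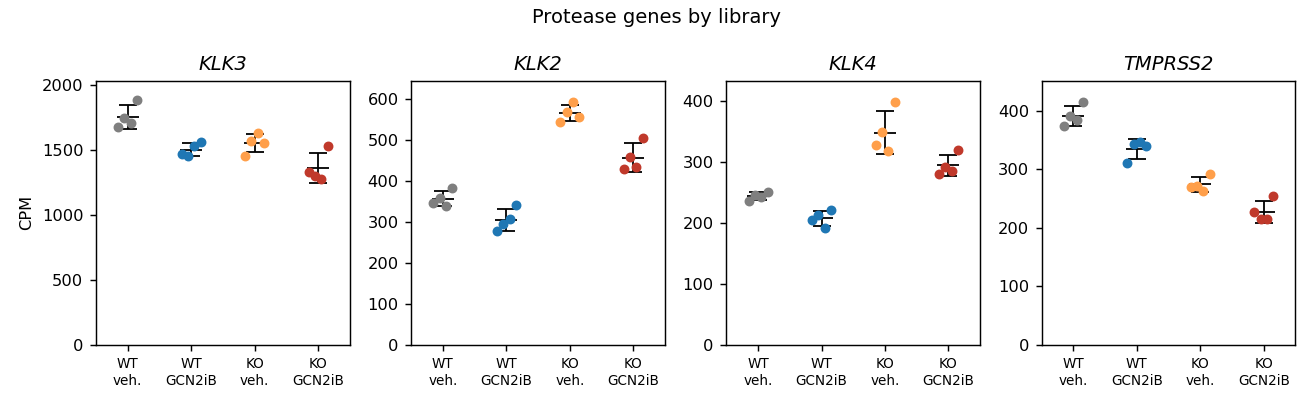
CPM of KLK3, KLK2, KLK4 and TMPRSS2 in each library (points), with the mean and SD of the 4 libraries of each group (bars). KLK2 and KLK4 sit higher in both p53 KO groups, TMPRSS2 sits lower, and KLK3 ranges from 1279 to 1886 CPM over all groups.

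ADAM7, a member of the ADAM family of membrane proteins, had the largest called fall with GCN2iB. It stood at 12.8, 11.8, 10.8 and 12.2 CPM in WT vehicle and 6.55, 7.53, 7.48 and 7.34 CPM in WT GCN2iB. In p53 KO it stood at 14.8, 11.2, 11.9 and 13.0 CPM with vehicle and 7.57, 7.73, 8.35 and 7.60 CPM with GCN2iB. Every GCN2iB library was below every vehicle library, whatever the genotype. The log2 ratio was -0.71 (SE 0.09, adjusted p = 8.32e-06) in WT and -0.71 (SE 0.09, adjusted p = 9.63e-06) in p53 KO. Between genotypes it was 0.11 (adjusted p = 0.449) under vehicle and 0.11 (adjusted p = 0.457) with GCN2iB.

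Among 9 membrane transporters, channels, receptors and metalloreductases, 6 (66.7%) fell with GCN2iB in WT and 5 (55.6%) in p53 KO, and 0 rose, where 13.6% and 8.71% of all tested genes fell. Between genotypes 2 (22.2%) were higher and 3 (33.3%) lower in p53 KO under vehicle, against 9.63% and 12.1% of all tested genes. With GCN2iB 3 (33.3%) were higher and 1 (11.1%) lower, against 12.7% and 11.2%. ABCC4 (ENSG00000125257, chr13:95019829-95301475, minus strand), an exporter of cyclic nucleotides and prostaglandins, was lower in all 4 comparisons. It stood at 339.6, 291, 305 and 269.6 CPM in WT vehicle and 224, 214, 224 and 214 CPM in WT GCN2iB. In p53 KO the values were 248, 214, 219 and 196 CPM with vehicle and 184, 167, 179.5 and 144 CPM with GCN2iB. The groups compared did not overlap in any of the 4 comparisons. ABCC4 fell 1.38-fold with GCN2iB in WT (log2 -0.46, SE 0.08, adjusted p = 0.000199) and 1.30-fold in p53 KO (adjusted p = 0.00151), and it was 1.37-fold lower in p53 KO under vehicle (adjusted p = 0.00016) and 1.30-fold lower with GCN2iB (adjusted p = 0.00123).

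TRPM8, a cation channel that senses cold, stood at 32.2, 26.3, 25.7 and 25.5 CPM in WT vehicle, 22.4, 18.3, 18.9 and 19.5 CPM in WT GCN2iB, 19.2, 18.8, 17.1 and 19.1 CPM in p53 KO vehicle and 18.9, 17, 16.6 and 14.8 CPM in p53 KO GCN2iB. WT vehicle was above every library of the other groups, and the 2 p53 KO groups overlapped. It fell 1.38-fold with GCN2iB in WT (log2 -0.47, SE 0.09, adjusted p = 0.000462), and in p53 KO the log2 ratio was -0.14 (adjusted p = 0.298). In p53 KO it was 1.48-fold lower under vehicle (adjusted p = 4.73e-05). With GCN2iB the genotype log2 ratio was -0.23 (adjusted p = 0.0619), which was called lower without WT GCN2iB replicate 2 (adjusted p = 0.0427) or p53 KO GCN2iB replicate 1 (adjusted p = 0.0196).

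STEAP1 and STEAP2, metalloreductases of the prostate cell surface, and SLC45A3, the prostate transporter known as prostein, fell with GCN2iB in both genotypes. STEAP1 went from 351 ± 17.2 to 268 ± 18.5 CPM in WT and from 299 ± 13.3 to 257 ± 6.27 CPM in p53 KO, and it was lower in p53 KO under vehicle (log2 -0.23, adjusted p = 0.00576). STEAP2 went from 697 ± 95.8 to 539 ± 18.9 CPM in WT and from 636 ± 74.6 to 519 ± 47.6 CPM in p53 KO, a fall not called without p53 KO vehicle replicate 1 (adjusted p = 0.0912) or p53 KO GCN2iB replicate 4 (adjusted p = 0.0650). SLC45A3 had log2 ratios of -0.43 and -0.34, and it was higher in p53 KO with GCN2iB (log2 0.25, adjusted p = 0.00739; 0.0672 without WT GCN2iB replicate 3). CHRNA2, a subunit of nicotinic acetylcholine receptors, fell with GCN2iB in WT (log2 -0.31) and p53 KO (log2 -0.21) and was higher in p53 KO under vehicle (log2 0.30) and with GCN2iB (log2 0.39). Its fall in p53 KO was lost without any 1 of p53 KO vehicle replicates 2, 3 and 4 and p53 KO GCN2iB replicates 1, 2 and 3 (adjusted p = 0.0527 to 0.102).

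STEAP4, another metalloreductase, was the lowest of the 33 genes, with 5 to 67 counts a library. With vehicle its mean level was 0.603 ± 0.314 CPM in WT and 1.53 ± 0.129 CPM in p53 KO, 2.70-fold higher (log2 1.43, SE 0.29, adjusted p = 0.000954), and with GCN2iB 0.27 ± 0.136 and 0.936 ± 0.27 CPM, 3.38-fold higher (SE 0.35, adjusted p = 0.000683). These were the largest genotype ratios of the set. With GCN2iB the log2 ratio was -1.01 in WT (adjusted p = 0.0504; called without WT vehicle replicate 2 or 4, or WT GCN2iB replicate 4, adjusted p = 0.0386, 0.0217 and 0.0170) and -0.69 in p53 KO (adjusted p = 0.0784). PTGER4, a receptor for prostaglandin E, and LRIG1, an inhibitor of growth factor receptors, were called in no comparison, with log2 ratios of -0.10 to 0.10 for PTGER4 and -0.25 to -0.14 for LRIG1. Without a filter beyond 1 count LRIG1 was called lower with GCN2iB in p53 KO (adjusted p = 0.025) and lower in p53 KO with GCN2iB (adjusted p = 0.0257).

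Of the 6 metabolic genes 4 (66.7%) fell with GCN2iB in WT and 3 (50%) in p53 KO, and 0 rose, where 13.6% and 8.71% of all tested genes fell. UAP1 (ENSG00000117143, chr1:162561506-162599842, plus strand), which makes the sugar donor UDP-N-acetylglucosamine for protein glycosylation, stood at 381, 342, 361 and 352 CPM in WT vehicle and 252, 231, 244 and 261 CPM in WT GCN2iB. In p53 KO it stood at 403, 362, 372 and 373 CPM with vehicle and 289, 289.7, 300 and 282 CPM with GCN2iB. Vehicle libraries of either genotype were above all GCN2iB libraries, and among the latter those of p53 KO were above those of WT. UAP1 fell 1.45-fold in WT (log2 -0.54, SE 0.06, adjusted p = 3.65e-07) and 1.30-fold in p53 KO (log2 -0.38, SE 0.06, adjusted p = 4.12e-05), and it was 1.18-fold higher in p53 KO with GCN2iB (adjusted p = 0.00365).

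CAMKK2 (ENSG00000110931, chr12:121237691-121298308, minus strand), a calcium-dependent kinase that activates AMPK, was lower in p53 KO and lower with GCN2iB. It stood at 146, 156, 152 and 150.4 CPM in WT vehicle and 112, 115, 113 and 103 CPM in WT GCN2iB. In p53 KO the values were 94.7, 95.9, 95.8 and 95.3 CPM with vehicle and 74.8, 71.2, 75.2 and 73.0 CPM with GCN2iB. The 4 groups did not overlap and lay in that order from highest to lowest. The genotype difference was 1.58-fold under vehicle (log2 -0.66, SE 0.05, adjusted p = 2.21e-09) and 1.5-fold with GCN2iB (adjusted p = 1.97e-08). With GCN2iB it fell 1.36-fold in WT (adjusted p = 1.93e-06) and 1.30-fold in p53 KO (adjusted p = 2.52e-05).

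ACSL3, which activates long-chain fatty acids, fell with GCN2iB from 421 ± 43.1 to 321 ± 7.48 CPM in WT and from 536 ± 49.8 to 414 ± 12.8 CPM in p53 KO, and it was higher in p53 KO by a log2 ratio of 0.35 under vehicle and 0.37 with GCN2iB. HPGD, which breaks down prostaglandins and was singled out after its values were seen, stood at 15.6, 14.5, 14.9 and 14.4 CPM in WT vehicle against 11.6, 8.44, 9.51 and 8.87 CPM in WT GCN2iB, 11.4, 9.98, 10.8 and 10.8 CPM in p53 KO vehicle and 10.4, 9.70, 9.56 and 8.76 CPM in p53 KO GCN2iB. WT vehicle alone stood high, and the other 3 groups overlapped. HPGD fell 1.55-fold with GCN2iB in WT (adjusted p = 2.75e-05), had a log2 ratio of -0.17 in p53 KO (adjusted p = 0.222), and was 1.38-fold lower in p53 KO under vehicle (adjusted p = 0.000502). SORD, which turns sorbitol into fructose, and GNMT, a methyltransferase of glycine, were called in neither GCN2iB comparison. With trends of GC content and length removed GNMT was called lower with GCN2iB in WT (log2 -0.27, adjusted p = 7.86e-05, against -0.10) and in p53 KO (log2 -0.23, adjusted p = 0.000405, against -0.08). SORD was higher in p53 KO with GCN2iB (log2 0.28, adjusted p = 0.00044), and under vehicle its log2 ratio was 0.15 (adjusted p = 0.0505; 0.0495 without p53 KO vehicle replicate 1). GNMT was higher in p53 KO with GCN2iB at an adjusted p of 0.0421, a call lost without any 1 of the 4 WT GCN2iB libraries or p53 KO GCN2iB replicates 1 and 4 (adjusted p = 0.0917 to 0.173), and under vehicle it was called without p53 KO vehicle replicate 1 (adjusted p = 0.0250).

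Of the 5 transcription and elongation factors 4 (80%) were higher in p53 KO under each treatment and 0 lower, where 9.63% of all tested genes were higher under vehicle and 12.7% with GCN2iB. Whether they differ in this from the other targets was not tested. With GCN2iB 3 (60%) fell in each genotype, against 13.6% of all tested genes in WT and 8.71% in p53 KO. MAF (ENSG00000178573, chr16:79585843-79600714, minus strand), a leucine zipper factor, stood at 69.7, 63.2, 65.2 and 61.8 CPM in WT vehicle, 46.2, 43.5, 46.7 and 49.5 CPM in WT GCN2iB, 108, 94.0, 94.5 and 96.4 CPM in p53 KO vehicle and 77.6, 73.6, 67.3 and 73.5 CPM in p53 KO GCN2iB. None of the groups compared overlapped. MAF was 1.51-fold higher in p53 KO under vehicle (log2 0.60, SE 0.06, adjusted p = 3.01e-07) and 1.57-fold higher with GCN2iB (adjusted p = 1.13e-07), and it fell 1.40-fold with GCN2iB in WT (adjusted p = 1.4e-05) and 1.34-fold in p53 KO (adjusted p = 5.82e-05).

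EAF2 (ENSG00000145088, chr3:121835183-121886526, plus strand), a partner of the ELL elongation factors, passed the test in both genotype comparisons and in neither GCN2iB comparison. It stood at 7.79, 7.66, 6.70 and 8.38 CPM in WT vehicle and 8.04, 8.23, 6.97 and 9.91 CPM in WT GCN2iB. In p53 KO the values were 12.1, 13.7, 10.8 and 14.5 CPM with vehicle and 14, 14.5, 13.7 and 15.7 CPM with GCN2iB. All p53 KO libraries were above all WT libraries, and within each genotype the treatments overlapped. EAF2 was 1.67-fold higher in p53 KO under vehicle (log2 0.74, SE 0.11, adjusted p = 2.03e-05) and 1.74-fold higher with GCN2iB (adjusted p = 7.44e-06). With GCN2iB its log2 ratios were 0.12 in WT (95% interval -0.11 to 0.35) and 0.18 in p53 KO (95% interval -0.03 to 0.40).

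ELL2, an elongation factor of RNA polymerase II, fell with GCN2iB in WT (log2 -0.31, adjusted p = 0.00724) and p53 KO (log2 -0.29, adjusted p = 0.0132; 0.0571 without p53 KO vehicle replicate 1), and it was 1.38-fold higher in p53 KO under vehicle and 1.40-fold higher with GCN2iB. ZBTB10, a zinc finger repressor, was higher in p53 KO under vehicle (log2 0.33) and with GCN2iB (log2 0.31). With GCN2iB it fell in p53 KO at an adjusted p of 0.0406, a call lost without any 1 of p53 KO vehicle replicates 1, 2 and 3 and p53 KO GCN2iB replicates 1, 2 and 4 (adjusted p = 0.0518 to 0.142), and in WT the adjusted p was 0.0586 (0.0217 without WT vehicle replicate 4). SPDEF, an ETS factor of luminal and secretory cells, fell with GCN2iB in WT (log2 -0.29, adjusted p = 0.0116; 0.0557 without WT GCN2iB replicate 3). In p53 KO its log2 ratio was -0.21 (adjusted p = 0.0742), called without p53 KO vehicle replicate 1 (adjusted p = 0.0158) or p53 KO GCN2iB replicate 4 (adjusted p = 0.00963).

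FKBP5, TSC22D3 and ZBTB16 are induced by both the androgen and the glucocorticoid receptor. TSC22D3 (ENSG00000157514, chrX:107713221-107777342, minus strand), the leucine zipper protein known as GILZ, stood at 40.6, 41.2, 39.5 and 44.8 CPM in WT vehicle and 25.6, 23.3, 26.3 and 28.0 CPM in WT GCN2iB. In p53 KO it stood at 54.9, 53.4, 54.7 and 59.1 CPM with vehicle and 37.5, 34.9, 35.2 and 39.5 CPM with GCN2iB. The groups compared did not overlap in any comparison, and GCN2iB libraries were the lower ones in each genotype. TSC22D3 fell 1.61-fold with GCN2iB in WT (log2 -0.69, SE 0.07, adjusted p = 2.15e-07) and 1.51-fold in p53 KO (log2 -0.59, adjusted p = 1.75e-06), and it was 1.33-fold higher in p53 KO under vehicle (adjusted p = 6.49e-05) and 1.43-fold higher with GCN2iB (adjusted p = 7.51e-06). FKBP5, a co-chaperone of steroid receptors, fell from 319 ± 33 to 257 ± 7.5 CPM in WT and from 372 ± 27.9 to 282 ± 21.8 CPM in p53 KO. It was higher in p53 KO under vehicle at an adjusted p of 0.0315, which was lost without any 1 of WT vehicle replicates 2, 3 and 4 and p53 KO vehicle replicates 1 and 2 (adjusted p = 0.0601 to 0.145). ZBTB16, the zinc finger factor PLZF, fell in p53 KO (log2 -0.19, adjusted p = 0.0445), a call lost without any 1 of p53 KO vehicle replicates 1, 2 and 3 and p53 KO GCN2iB replicates 1, 2 and 4 (adjusted p = 0.0584 to 0.138). In WT its log2 ratio was -0.16 (adjusted p = 0.0879; 0.0390 without WT vehicle replicate 4).

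Among the 5 remaining genes PMEPA1 (ENSG00000124225, chr20:57648392-57711536, minus strand), a membrane protein that dampens TGF-beta signalling, fell with GCN2iB in both genotypes and passed neither genotype test. It stood at 167, 173, 169 and 176 CPM in WT vehicle, 123, 119, 115 and 113 CPM in WT GCN2iB, 167, 168, 166 and 188 CPM in p53 KO vehicle and 125, 120.0, 128 and 129 CPM in p53 KO GCN2iB. All vehicle libraries were above all GCN2iB libraries, and between genotypes the libraries overlapped under each treatment. PMEPA1 fell 1.46-fold in WT (log2 -0.54, SE 0.06, adjusted p = 3.47e-07) and 1.37-fold in p53 KO (log2 -0.46, adjusted p = 4.42e-06). Between genotypes its log2 ratio was 0.01 under vehicle (95% interval -0.11 to 0.12) and 0.09 with GCN2iB (95% interval -0.03 to 0.21).

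IQGAP2, a scaffold of the cytoskeleton, stood at 37.7, 32.9, 31.6 and 27.4 CPM in WT vehicle, 31.4, 29.6, 30.3 and 29.4 CPM in WT GCN2iB, 31.7, 29, 30 and 24.1 CPM in p53 KO vehicle and 26.6, 26.3, 25.1 and 20.2 CPM in p53 KO GCN2iB. The groups overlapped in all comparisons but that of the genotypes with GCN2iB, where IQGAP2 was lower in p53 KO (log2 -0.30, SE 0.10, adjusted p = 0.0282; 0.0889 without p53 KO GCN2iB replicate 4). With GCN2iB in p53 KO the log2 ratio was -0.23 (adjusted p = 0.105; 0.0284 without p53 KO vehicle replicate 4). C1orf116, a gene named for its regulation by androgen in the prostate, was higher in p53 KO under vehicle (log2 0.29, adjusted p = 0.000397) and with GCN2iB (log2 0.33, adjusted p = 0.000123), and its GCN2iB log2 ratios were -0.08 and -0.04 (adjusted p = 0.324 and 0.625). HERC3, a ubiquitin ligase whose symbol also names a second entry with 0 counts, was low, at 2.60 ± 0.392 CPM in WT vehicle. It was higher in p53 KO with GCN2iB (adjusted p = 0.00769; 0.0539 without p53 KO GCN2iB replicate 4), and under vehicle the adjusted p was 0.0599 (0.0478 without WT vehicle replicate 1 and 0.0491 without p53 KO vehicle replicate 3). MPHOSPH9, a centriole protein, fell with GCN2iB in WT at an adjusted p of 0.0416, a call lost without any 1 of WT vehicle replicates 1, 2 and 3 or the 4 WT GCN2iB libraries (adjusted p = 0.0509 to 0.174), and it was called higher in p53 KO with GCN2iB without p53 KO GCN2iB replicate 4 (adjusted p = 0.0477). The exons of 14 of the 33 genes share bases with another gene, most on the opposite strand, by up to 12.9% for LRIG1, and the strand setting of the counting is not given, so reads of such partners cannot be told apart.

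**Figure D3:**
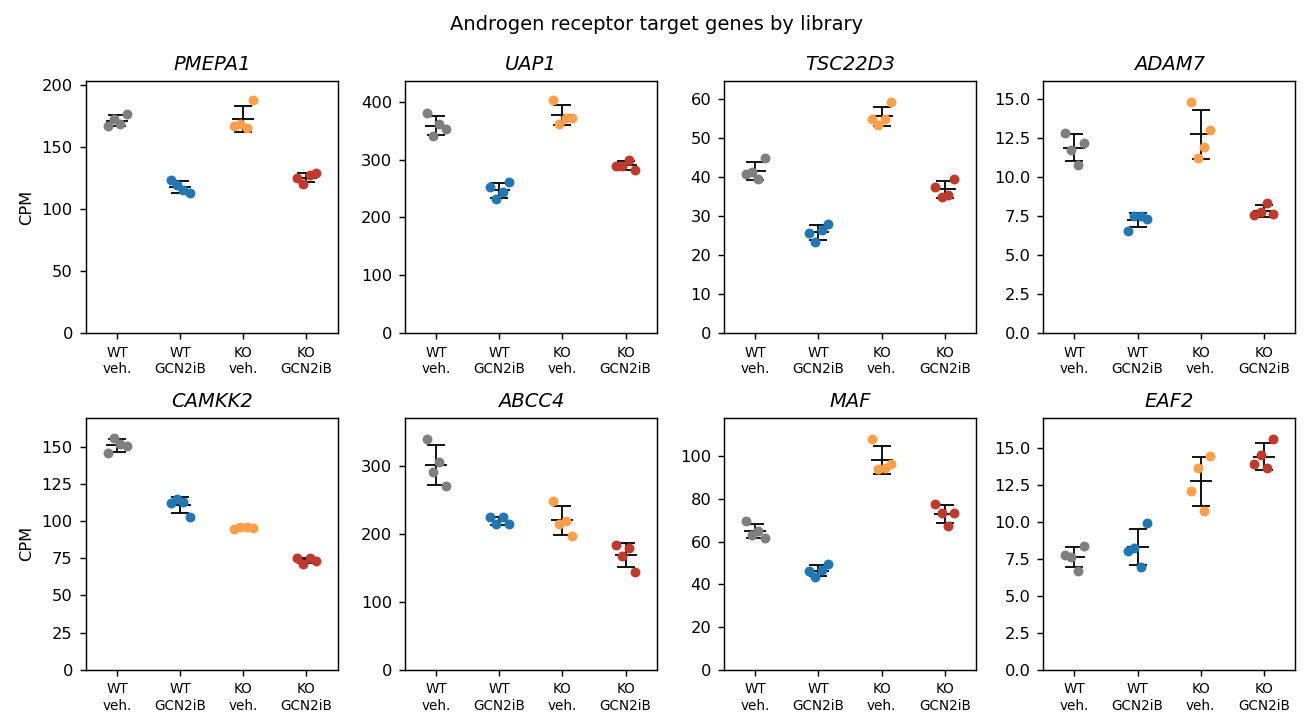
CPM of 8 genes in each library (points), with the mean and SD of the 4 libraries of each group (bars). PMEPA1, UAP1, TSC22D3 and ADAM7 drop from vehicle to GCN2iB in both genotypes, CAMKK2 and ABCC4 step down from WT to p53 KO, MAF steps up, and EAF2 is higher in p53 KO with overlapping treatments.

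Set side by side, the GCN2iB and genotype ratios of a gene fell into several combinations. The GCN2iB and the genotype comparisons share libraries, so their values are given gene by gene and no relation between them is drawn. TMPRSS2, CAMKK2 and ABCC4 were lower with GCN2iB in both genotypes and lower in p53 KO under both treatments. KLK2, KLK4, ACSL3, CHRNA2, ELL2, MAF and TSC22D3 were lower with GCN2iB in both genotypes and higher in p53 KO under both treatments. ADAM7, STEAP2 and PMEPA1 were lower with GCN2iB in both genotypes and called in neither genotype comparison. EAF2, C1orf116 and STEAP4 were higher in p53 KO under both treatments and called in neither GCN2iB comparison. The other 17 genes were called in other combinations or, for PTGER4 and LRIG1, in none.

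**Figure D4:**
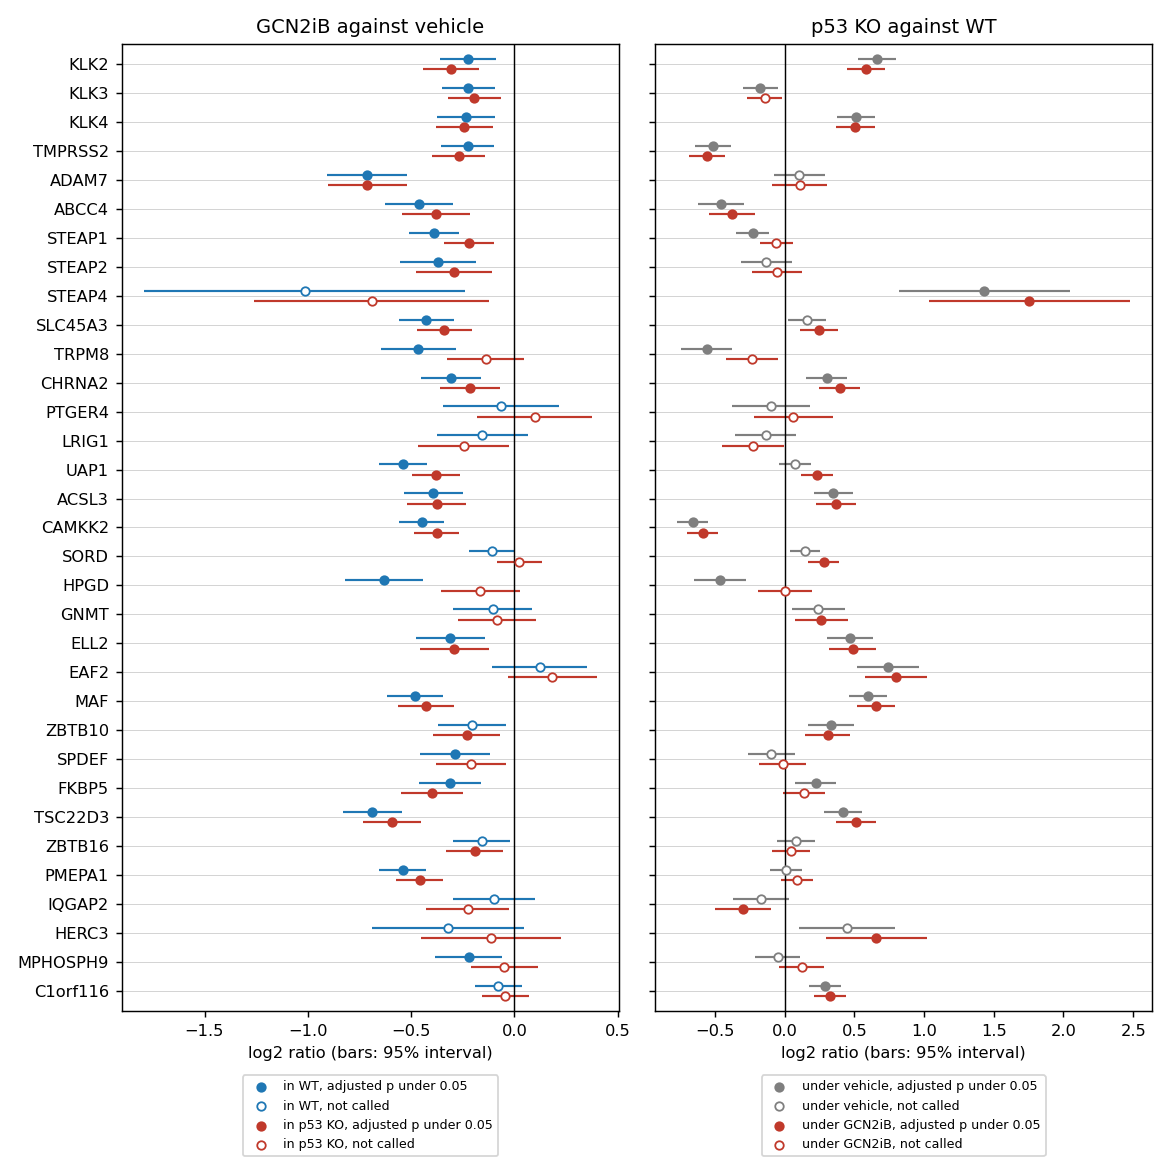
log2 ratios of the 33 genes with 95% intervals, for GCN2iB against vehicle in WT and p53 KO and for p53 KO against WT under vehicle and with GCN2iB. The GCN2iB ratios lie mostly left of 0 with a median of -0.31 in WT and -0.24 in p53 KO, and the genotype ratios lie on both sides.

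Whether the GCN2iB response differed between the genotypes was asked with the interaction, the log2 response in p53 KO minus that in WT. Of the 33 genes 0 were called in the edgeR test, where 0.00539% of all tested genes (1 gene) were called, and 3 had an unadjusted p under 0.05. DESeq2 and limma voom also called 0 of the 33. HPGD had the smallest p, with an interaction of 0.46 (95% interval 0.20 to 0.73, unadjusted p = 0.00162, adjusted p = 0.324), followed by TRPM8 at 0.33 (95% interval 0.07 to 0.59, adjusted p = 0.425). The third was STEAP1 at 0.17 (adjusted p = 0.528). The interaction lay above 0 for 25 of the 33 genes and below 0 for 8, with a median of 0.07 against 0.02 over all genes. A value above 0 is a smaller fall in p53 KO only for a gene that fell in both genotypes. For 29 genes the 95% interval lay within a 1.5-fold difference either way, and for 4 it reached past it. So TRPM8 and HPGD, called lower with GCN2iB in WT alone, were not shown to respond otherwise in p53 KO.

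Other genes of the androgen pathway were described by lists taken from general knowledge. These lists too were drawn up with earlier results of these data known, so they are no independent check. Of 52 further androgen-induced genes 50 were tested, and with GCN2iB 24 (48%) fell and 1 (2%) rose in WT (median -0.20) and 16 (32%) fell and 2 (4%) rose in p53 KO (median -0.15). Over all tested genes 13.6% fell and 11.6% rose in WT and 8.71% fell and 11.4% rose in p53 KO. Between genotypes 11 (22%) were higher and 12 (24%) lower in p53 KO under vehicle, against 9.63% and 12.1% of all tested genes, and 13 (26%) were higher and 6 (12%) lower with GCN2iB, against 12.7% and 11.2%. With library totals 26 fell in p53 KO with GCN2iB, and 14 were higher and 6 lower in p53 KO under vehicle. SLC43A1, an amino acid transporter, fell 1.72-fold in WT (adjusted p = 2.44e-08) and 1.41-fold in p53 KO (adjusted p = 1.26e-05), and it was 1.41-fold higher in p53 KO under vehicle (adjusted p = 5.97e-06). B4GALT1, a galactosyltransferase, fell 1.33-fold in WT and 1.23-fold in p53 KO.

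Of 8 genes that androgen lowers, 1 (12.5%) rose and 2 (25%) fell with GCN2iB in WT, where 11.6% of all tested genes rose and 13.6% fell, so the share that rose was near that of all genes. In p53 KO 3 (37.5%) rose and 0 fell, against 11.4% and 8.71%. Between genotypes 7 (87.5%) were lower in p53 KO under vehicle and 5 (62.5%) with GCN2iB, against 12.1% and 11.2% of all tested genes, and 0 were higher. UGT2B15, an enzyme that inactivates androgens by glucuronidation, went from 134 ± 7.67 to 167 ± 6.1 CPM with GCN2iB in WT, 1.25-fold higher (adjusted p = 0.000772), and from 84.6 ± 8.06 to 132 ± 4.73 CPM in p53 KO, 1.56-fold higher (adjusted p = 3.43e-07). UGT2B17, its close paralog, was 1.77-fold lower in p53 KO under vehicle (adjusted p = 9.88e-10) and 1.37-fold lower with GCN2iB (adjusted p = 1.03e-05). Reads of UGT2B15, UGT2B17 and UGT2B11 are hard to assign among these copies, so their levels are uncertain. PEG3, an imprinted zinc finger gene, was 3.36-fold lower in p53 KO with GCN2iB (adjusted p = 4.33e-05).

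Of 24 partners, coactivators and corepressors of the receptor, 4 (16.7%) rose and 2 (8.33%) fell with GCN2iB in WT, where 11.6% of all tested genes rose and 13.6% fell. In p53 KO 2 (8.33%) rose and 1 (4.17%) fell, against 11.4% and 8.71%, so these GCN2iB shares were near or below those of all genes. Between genotypes 8 (33.3%) were lower in p53 KO under vehicle and 9 (37.5%) with GCN2iB, against 12.1% and 11.2%, and 0 were higher. GATA2, a factor that helps the receptor bind enhancers, rose 1.30-fold in WT (adjusted p = 0.000429) and 1.30-fold in p53 KO (adjusted p = 0.000574). HOXB13, a homeobox factor of the prostate, was 1.25-fold lower in p53 KO with GCN2iB (adjusted p = 0.0018). Of 14 chaperones of the receptor 6 (42.9%) rose in WT and 8 (57.1%) in p53 KO with GCN2iB, against 11.6% and 11.4% of all tested genes, and 0 fell. DNAJB1, a co-chaperone of HSP70, rose 1.35-fold in WT (adjusted p = 1.48e-05), and PTGES3, the p23 co-chaperone of HSP90, rose 1.27-fold in p53 KO (adjusted p = 0.000221). Of 18 genes of androgen synthesis and inactivation 14 were tested, and 3 (21.4%) fell and 0 rose in WT and 2 (14.3%) fell and 1 (7.14%) rose in p53 KO with GCN2iB. Over all tested genes 13.6% fell in WT, and 8.71% fell and 11.4% rose in p53 KO. Between genotypes 3 (21.4%) were higher and 1 (7.14%) lower in p53 KO under vehicle, against 9.63% and 12.1% of all tested genes. With GCN2iB 4 (28.6%) were higher and 1 (7.14%) lower, against 12.7% and 11.2%. The lower gene was SULT2B1, which sulphates steroids. It was 2.12-fold lower in p53 KO under vehicle (adjusted p = 8.18e-07) and 1.90-fold lower with GCN2iB (adjusted p = 1.24e-05).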

How the data were processed

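RNA of 16 LNCaP samples, 4 in each of 4 groups, was sequenced in paired ends, per the labels' protocols. The table deposited by the authors gives raw counts of reads for each gene, not normalized. The submitters' processing notes list GRCh38 with Trim Galore, HISAT2, DESeq2 and featureCounts, without versions. For annotation release and strand setting the answer is the same: not given in the sources used here. All 16 columns matched a sample by group and replicate number, and 0 columns had no sample.

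The analysis used edgeR 4.0.16 in R 4.3.3 (filterByExpr with a minimum count of 10, TMM scaling, robust quasi-likelihood fit with 1 term per group over all 16 libraries, two-sided tests, Benjamini-Hochberg over the 18549 genes tested, threshold 0.05). Alternatives were DESeq2 1.42.0 (size factors and test), limma 3.58.1 (voom), library totals, other count filters, a fit of the groups compared alone, replicate number as a block, removal of trends with GC content and length, removal of both GCN2iB replicate 4 libraries, and each library left out in turn. SEs were derived from the log2 ratio and its F statistic. The script was tested on simulated counts. Gene positions and exon lengths are those of GENCODE 29, and promoter sequences are RefSeq's.

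The 33 genes and the other lists were chosen with earlier results of these data known. Values in every library are given for KLK2, KLK3, KLK4 and TMPRSS2 and, in each comparison of 2 groups, for the 4 called genes with the smallest adjusted p in each direction. Up to 3 genes of each other list are named by the same order. Some items are not reported here.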

Additional observations from a re-analysis of the deposited data

Results flagged for a closer look

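In 7 of 132 sets of 4 libraries (each of the 33 genes in each group), 1 library stood far from the other 3 by Dixon's criterion for 4 values. Chance gives about 1 such set in 20. WT vehicle replicate 1 was highest for TRPM8, at 32.2 CPM against 25.5 to 26.3 CPM, and for ACSL3, at 485 CPM against 391 to 407 CPM. MAF was highest in p53 KO vehicle replicate 1, at 108 CPM against 94.0 to 96.4 CPM. PMEPA1 was highest in p53 KO vehicle replicate 4, at 188 CPM against 166 to 168 CPM. In p53 KO GCN2iB replicate 4, ZBTB10 was lowest at 120.0 CPM against 137 to 138 CPM, ZBTB16 at 102 CPM against 115 to 117 CPM, and C1orf116 at 324 CPM against 360.0 to 367 CPM. No reason for these gaps was tested.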

How the results depend on the processing

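With GCN2iB the count of targets called lower ranged from 21 to 25 in WT and from 18 to 23 in p53 KO over the alternatives, and from 19 to 22 and from 16 to 19 with a library left out, and 0 were called higher in each of these fits. Under vehicle 12 to 16 were higher and 6 to 9 lower in p53 KO, and 11 to 14 and 6 to 7 with a library left out. With GCN2iB 14 to 19 were higher and 3 to 8 lower, and 14 to 16 and 4 to 5 with a library left out. The count lower in p53 KO with GCN2iB moved by more than 1.5 times, from 4 to 7 with the replicate block and to 8 with GC and length trends removed. With those trends removed SPDEF was called higher there (log2 0.12, adjusted p = 0.0178) where it was otherwise -0.02, and the cause was not tested. For the interaction 0 targets were called in every fit. The labels do not say that libraries with the same replicate number share a culture, batch or day. In their deviations from the group means, 13 of 16 libraries correlated best with a library of their own number in another group. Of 24 same-number pairs 5 correlated above 0.1, with a median r of 0.04, and no r of pairs with different numbers is given beside it. The main fit left replicate number out, so its p-values take no account of any such sharing. With the replicate block 25 targets fell in WT and 23 in p53 KO, and 16 were higher and 8 lower in p53 KO under vehicle. Over all genes the count called lower with GCN2iB in p53 KO also rose in that fit, from 1615 to 2437. In that fit no call for the 33 targets was lost. Calls were gained with GCN2iB in WT for STEAP4 (adjusted p = 0.0415), ZBTB10 (0.0131) and ZBTB16 (0.0175), and in p53 KO for LRIG1 (0.0173), SPDEF (0.00703) and IQGAP2 (0.00884). Between genotypes they were gained under vehicle for SLC45A3 (0.0249), SORD (0.0251), GNMT (0.00757), HERC3 (0.0211) and IQGAP2 (0.0407), and with GCN2iB for KLK3 (0.0254), TRPM8 (0.00909) and LRIG1 (0.0257). With GC and length trends removed, genotype calls were gained with GCN2iB for FKBP5 (0.0156), PMEPA1 (0.0296), STEAP1 (0.00964) and STEAP2 (0.0496), and under vehicle for STEAP2 (0.0165), among others. Calls over all genes rose there too, to 2433 lower with GCN2iB in p53 KO. Those higher in p53 KO under vehicle rose from 1787 to 2779. The edgeR calls of GNMT between genotypes with GCN2iB and of MPHOSPH9 with GCN2iB in WT were lost in the DESeq2 test (adjusted p = 0.0569 and 0.0539). The same test gained calls for STEAP4 with GCN2iB in WT (0.029) and for SORD between genotypes under vehicle (0.0196). It also gained KLK3 (0.0376) and TRPM8 (0.0381) between genotypes with GCN2iB. Of the values for single genes under alternatives, 3026 kept their side of the threshold, 87 lost a call and 82 gained one. The remaining 1, that of SPDEF given above, changed direction and was called. Depth limits STEAP4, with 5 to 67 counts a library.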
